A study of Mus musculus with 12 samples.

Results

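B-cell and plasma-cell genes were followed in thymic tumors and whole thymus of the Sdl mouse. The set comprised 9 genes taken by symbol: the surface and receptor genes Ms4a1, Cd79a, Cd79b and Cr2, the adaptor Blnk, the transcription factors Ebf1 and Pax5, and the antibody-secretion genes Jchain and Mzb1. Each was read from 1 transcript cluster, a group of probes that stands for a gene, out of 17829 clusters measured and 15223 genes with a symbol of their own. RNA was measured on 12 Affymetrix exon arrays, each hybridised with a pool of 3 organs from female mice, which the labels call biological replicates. Thymic tumors (4 pools) came from moribund mice heterozygous for the D573H allele of Mcm4, a subunit of the replicative helicase. Pre-leukemic whole thymus (4 pools) came from heterozygotes of the same genotype (D573H/+) at 21 days of age. Wild-type whole thymus (4 pools) came from Mcm4 +/+ mice, also at 21 days. Tumors and wild-type thymus therefore differed in age and in genotype as well as in disease, and these cannot be told apart. Between tumors and pre-leukemic thymus, age and disease cannot be told apart. A tumor pool combines the tumors of 3 mice, so variation between single tumors is not seen.

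The thymus is mainly an organ of T-cell development, but it also houses a small population of resident B cells, most of them near the medulla, which present antigen to thymocytes. B-cell identity is set by Ebf1 and Pax5, which switch on the genes of the receptor complex. Cd79a and Cd79b encode the paired signalling chains of the B-cell receptor, Blnk the adaptor that links it to downstream kinases, Cr2 a complement receptor that lowers its threshold, and Ms4a1 the surface antigen CD20. When B cells become plasma cells they secrete antibody, and Jchain encodes the chain that joins IgM and IgA into polymers, while Mzb1 encodes a chaperone of the endoplasmic reticulum that helps antibody assembly.

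Values are log2 of the normalized intensity the authors deposited. The median over all clusters and arrays was 7.62, and array medians lay between 186 and 210 on the linear scale. The 787 clusters of olfactory receptors, which the thymus is not known to transcribe, had array medians of 4.56 to 4.96 in tumors, 4.52 to 4.99 in pre-leukemic thymus and 4.43 to 4.77 in wild-type thymus. The 90th percentile of these clusters, each averaged over the arrays, was 6.43. Below it lay all 4 tumor values of Ms4a1, Cd79a in tumor pool 4, Jchain in tumor pools 1 and 4, Ms4a1 in pre-leukemic pool 2 and Cr2 on all 12 arrays. Folds given for these genes are ratios of measured intensity, which includes background and so understates a change in RNA. The spread of an array's values (interquartile range) was narrowest on pre-leukemic pools 2 and 1 (2.56 and 2.75) and on tumor pools 2 and 3 (2.75 and 2.76), against 2.84 to 3.08 in wild-type thymus. Replicates correlated at 0.983 to 0.996 across clusters.

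The 250 bases before the annotated start are shown for 3 of the genes whose transcripts fell in tumors, because Cd79a and Blnk are textbook target genes of B-lineage factors and Jchain is the antibody-secretion gene among them. RefSeq's table (build GRCm38.p6) held 7 windows for 6 of the 9 genes. Capitals mark matches to 3 motifs, searched on both strands; the motifs were picked with the sequences in view. The Cd79a window is chr7:24897247-24897496 on the plus strand, the Blnk window chr19:40994222-40994471 on the minus strand and the Jchain window chr5:88527898-88528147 on the minus strand, each written 5′ to 3′ along the gene.
Cd79a: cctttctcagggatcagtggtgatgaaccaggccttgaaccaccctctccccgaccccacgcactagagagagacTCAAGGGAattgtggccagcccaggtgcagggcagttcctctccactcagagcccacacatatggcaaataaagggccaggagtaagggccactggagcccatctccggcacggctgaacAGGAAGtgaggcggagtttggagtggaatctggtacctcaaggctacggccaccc
Blnk: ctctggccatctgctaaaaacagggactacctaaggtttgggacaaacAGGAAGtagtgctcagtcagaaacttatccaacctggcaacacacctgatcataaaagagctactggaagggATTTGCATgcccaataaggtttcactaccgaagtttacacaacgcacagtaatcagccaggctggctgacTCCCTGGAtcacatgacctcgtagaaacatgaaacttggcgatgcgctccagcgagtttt
Jchain: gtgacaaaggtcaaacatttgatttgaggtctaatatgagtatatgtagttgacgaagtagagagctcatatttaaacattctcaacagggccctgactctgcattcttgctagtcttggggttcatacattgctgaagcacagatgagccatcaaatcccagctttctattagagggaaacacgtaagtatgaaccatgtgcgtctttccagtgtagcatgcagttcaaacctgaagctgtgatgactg
In the Cd79a window, TCAAGGGA lies at -175 to -168 from the start and matches TCNNGGGA, a shortened form of the EBF motif found in 15.1% of all 32851 windows of this length. The second match there, AGGAAG, the core bound by Ets factors, lies at -55 to -50 and is found in 29.5% of windows. In the Blnk window, ATTTGCAT at -130 to -123 is the octamer ATGCAAAT read on the other strand, which 1.60% of windows hold. That window also holds AGGAAG at -202 to -197, and TCCCTGGA at -60 to -53, a match to TCNNGGGA on the other strand. The Jchain window holds none of the 3, nor do those of Cr2 and Ebf1, while the Pax5 window holds TCTGGGGA at -137 to -130. A match is a string of letters and does not show that a factor binds there.

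Tumors had lower transcripts of most of the set than wild-type thymus, a comparison named in the series' design. A call is a Benjamini-Hochberg adjusted p under 0.05 in limma, fitted across all clusters, and every adjusted p below is from that test. Ms4a1, Cd79a, Cd79b, Ebf1, Blnk and Jchain fell, which is 6 of 9, and no member was called higher. All 4 tumors lay below all 4 wild-type pools for the same 6, a placement seen in 15.7% of clusters. Over all clusters 30.7% were called in either direction and 14.5% were called lower. Changes of more than 1 on the log2 scale were called downward for 5 of the 9, against 3.36% of clusters. The median log2 difference of the 9 was -1.16, against 0.07 over all clusters. In whole-organ RNA, a smaller share of B cells among all cells, less RNA per B cell and a change in other cells that transcribe these genes cannot be told apart.

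**Figure D1:**
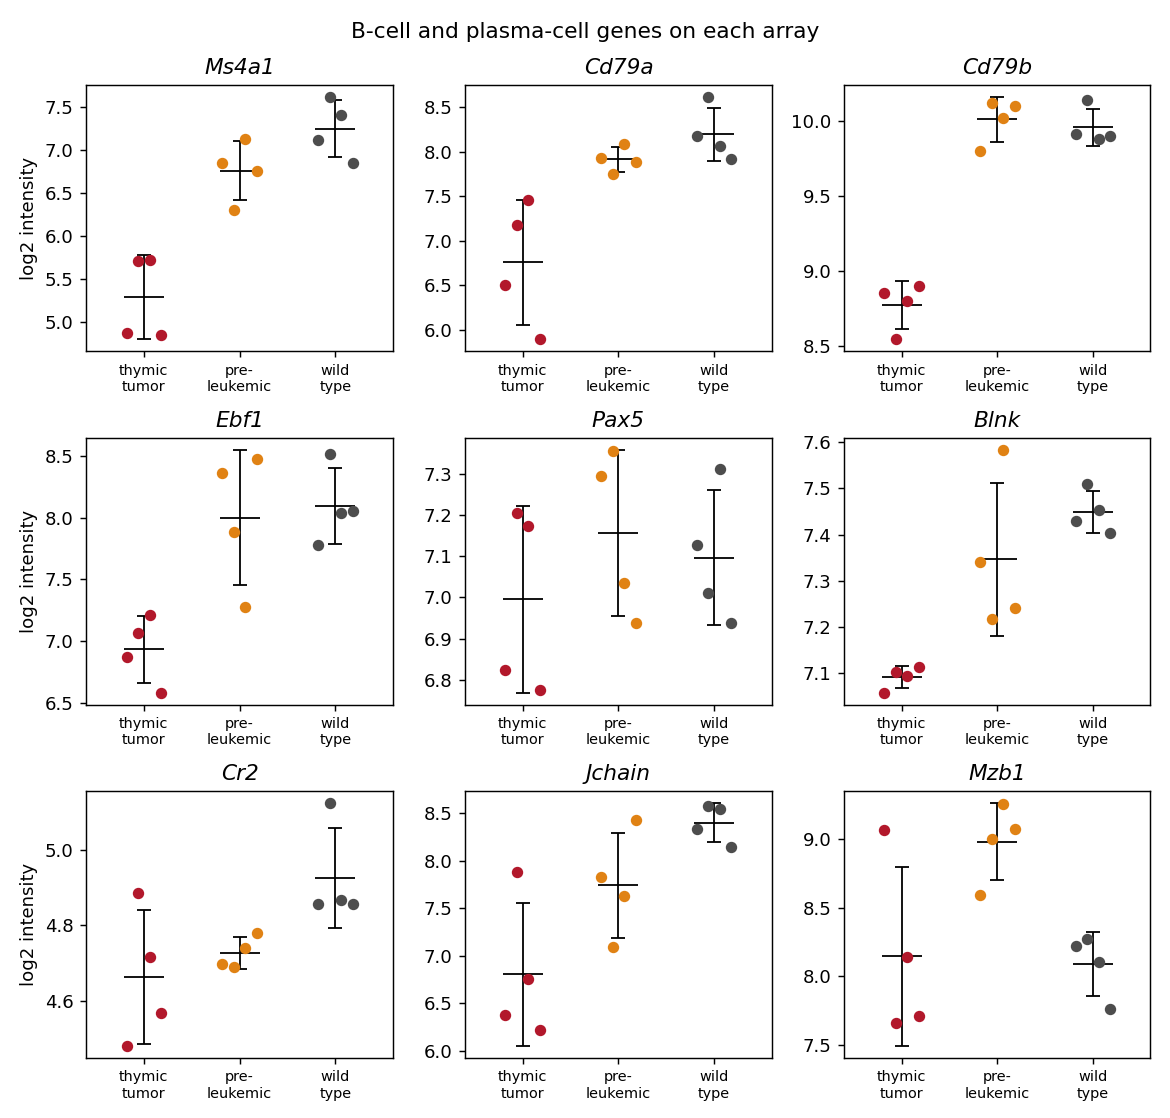
Log2 normalized intensity (vertical axis) of the 9 B-cell and plasma-cell genes on each of the 12 arrays, with 4 tumor pools, 4 pre-leukemic pools and 4 wild-type pools per gene a bar at each group mean and whiskers of 1 SD; each panel has its own vertical range. Ms4a1, Cd79a, Cd79b, Ebf1, Blnk and Jchain have all 4 tumor pools below all 4 wild-type pools, while Pax5, Cr2 and Mzb1 overlap.

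Ms4a1 had log2 intensities of 4.88, 5.71, 5.73 and 4.86 in the tumor pools, against 7.12, 7.62, 7.41 and 6.85 in wild-type thymus. All 4 tumors lay below every wild-type pool, and tumors 1 and 4 lay close to the olfactory receptor medians of the same arrays, 4.56 and 4.64. The mean was 5.29 ± 0.49 in tumors and 7.25 ± 0.33 in wild-type thymus (SD, n = 4 each), a difference of -1.95 ± 0.25 (SE), or 3.87-fold lower, with a limma adjusted p of 4.72e-04.

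Both chains of the receptor complex fell, with an SD among tumors of 0.70 for Cd79a and 0.16 for Cd79b. Cd79a had values of 6.50, 7.18, 7.46 and 5.89 in tumors, against 8.18, 8.61, 8.07 and 7.92 in wild-type thymus. The tumor pools ran from 5.89 to 7.46 and still did not reach the lowest wild-type pool. Cd79a fell by 1.44 ± 0.32 (limma adjusted p = 0.00797), a 2.71-fold decrease. Cd79b had values of 8.85, 8.54, 8.80 and 8.90 in tumors, against 9.91, 10.14, 9.88 and 9.90 in wild-type thymus. Here both groups were tight, with an SD of 0.16 in tumors and 0.12 in wild-type thymus, and no overlap. Cd79b fell by 1.18 ± 0.10, or 2.27-fold, with the smallest adjusted p of the set (limma, 5.56e-05).

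Blnk, the adaptor downstream of these chains, had 7.06, 7.10, 7.09 and 7.11 in tumors, against 7.43, 7.51, 7.45 and 7.40 in wild-type thymus. The groups were separate and their spread was the smallest in the set, with an SD of 0.02 in tumors and 0.04 in wild-type thymus. The difference was small, -0.36 ± 0.06, or 1.28-fold lower (limma adjusted p = 0.00206). Cr2, the complement receptor of mature B cells, had 4.48, 4.89, 4.72 and 4.57 in tumors, against 4.86, 5.12, 4.87 and 4.86 in wild-type thymus. These values lie near the olfactory receptor medians in both groups, and only tumor 2 reached into the wild-type range. The log2 difference of Cr2 was -0.26, with a 95% interval from -0.50 to -0.02, and it was not called (limma adjusted p = 0.0949). Without tumor pool 2 it was -0.34 and was called (limma adjusted p = 0.0316).

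Of the lineage factors, Ebf1 was called and Pax5 was not; their difference from each other was not tested. Ebf1 had 6.87, 7.07, 7.22 and 6.58 in tumors, against 7.78, 8.51, 8.04 and 8.05 in wild-type thymus. No tumor pool reached a wild-type pool, and Ebf1 fell by 1.16 ± 0.18, or 2.23-fold (limma adjusted p = 0.00124). Pax5, which maintains B-cell identity downstream of Ebf1, had 6.82, 7.21, 7.17 and 6.78 in tumors, against 7.13, 7.01, 7.31 and 6.94 in wild-type thymus. Tumor pools 1 and 4 lay below all wild-type pools, and pools 2 and 3 lay within the wild-type range. The log2 difference of Pax5 was -0.10, with a 95% interval from -0.39 to 0.19 (limma adjusted p = 0.577), an interval that does not reach the size of the Ebf1 difference.

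Of the antibody-secretion genes, Jchain was called and Mzb1 was not. Jchain had 6.37, 7.88, 6.75 and 6.21 in tumors, against 8.33, 8.58, 8.55 and 8.14 in wild-type thymus. Tumor pool 2 stood above the other tumors but below all wild-type pools. Jchain fell by 1.59 ± 0.32, or 3.02-fold (limma adjusted p = 0.00532). Mzb1 had 9.07, 7.66, 8.14 and 7.71 in tumors, against 8.22, 8.27, 8.10 and 7.76 in wild-type thymus. Tumor pool 1 was the highest and tumor pool 2 the lowest of these 8 arrays. The log2 difference was 0.06, with a 95% interval from -0.59 to 0.70 (limma adjusted p = 0.904), and without tumor pool 1 it was -0.25 and also not called.

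**Figure D2:**
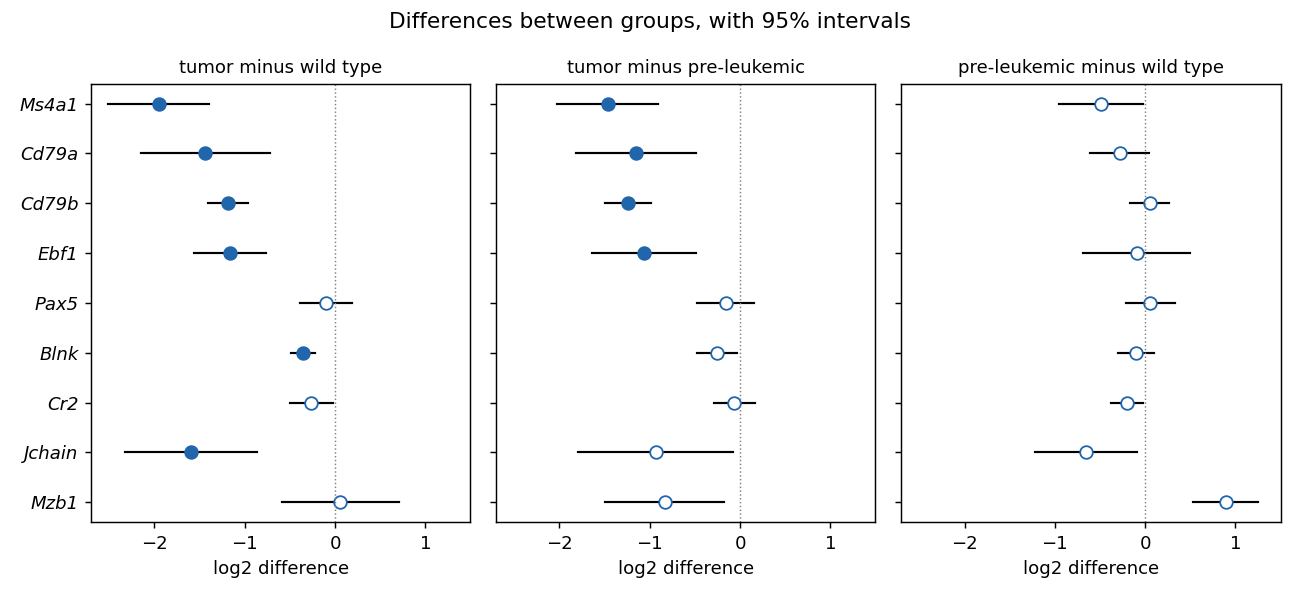
Log2 difference in intensity (horizontal axis) of each of the 9 genes with its 95% interval from limma, for tumor minus wild type, tumor minus pre-leukemic and pre-leukemic minus wild type. Filled points were called at an adjusted p under 0.05 and open points were not; the filled ones are 6 genes in the first comparison, 4 in the second and 0 in the third.

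The tumor pools did not rank alike for all members. Ms4a1, Cd79a and Ebf1 shared one order, lowest in pool 4, then 1, then 2, and highest in pool 3. For 6 of the 9, namely Ms4a1, Cd79a, Ebf1, Pax5, Cr2 and Jchain, pools 2 and 3 both lay above pools 1 and 4. Cd79b ran otherwise, lowest in pool 2 and highest in pool 4, and Mzb1 was lowest in pool 2 and highest in pool 1. Pools 2 and 3 are also the tumor arrays with the narrower spread and the higher olfactory receptor medians (4.96 and 4.87, against 4.56 and 4.64 in pools 1 and 4), and the part of this in the order was not tested. Mean log2 intensity of the 9 genes was 6.77, 7.03, 7.01 and 6.51 in tumor pools 1 to 4, against 7.66, 7.93, 7.74 and 7.54 in the wild-type pools, without overlap.

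**Figure D3:**
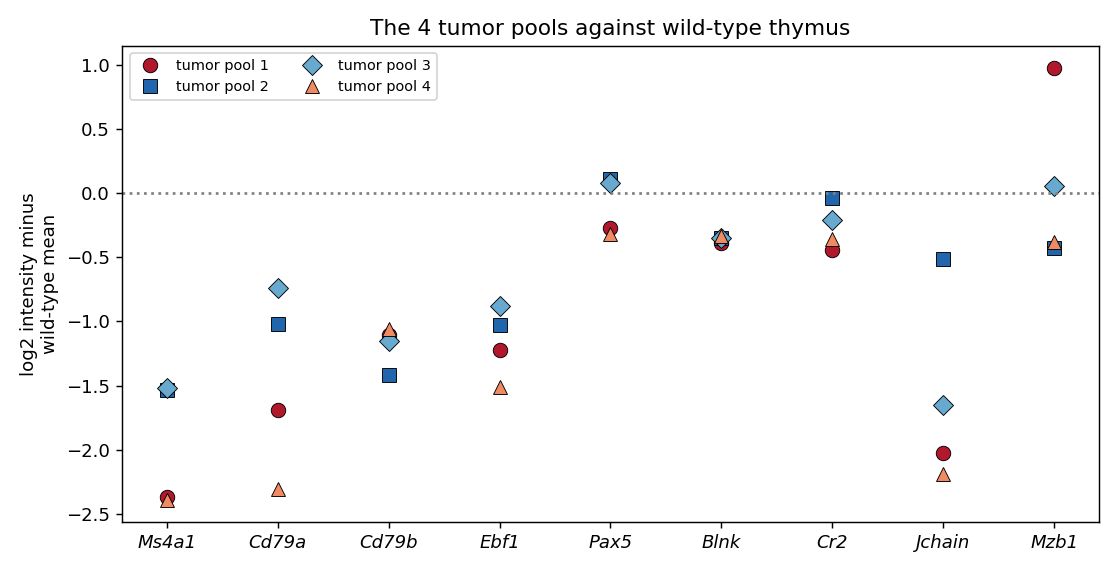
Log2 intensity minus the wild-type mean (vertical axis) of each of the 9 genes in the 4 tumor pools, 1 marker per pool; the dotted line at 0 is the wild-type mean. Ms4a1, Cd79a and Ebf1 are lowest in pool 4 and highest in pool 3, whereas Mzb1 is highest in pool 1 and lowest in pool 2.

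Tumors were also set against pre-leukemic thymus of the same genotype. These tests reuse the tumor arrays of the first comparison, so the results are not independent of it. Ms4a1, Cd79a, Cd79b and Ebf1 fell, 4 of 9, each by more than 1 on the log2 scale, and no member was called higher. Of all clusters 16% were called, 8.27% downward, and 2.49% downward by more than 1. The median difference of the 9 genes was -0.94, against 0.02 over all clusters. All 4 tumors lay below all 4 pre-leukemic pools for 5 members (the 4 called ones and Blnk), a placement seen in 10.2% of clusters.

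Ms4a1 had 6.85, 6.31, 7.12 and 6.76 in the pre-leukemic pools, all above the highest tumor value of 5.73. The measured intensity was 2.76-fold lower in tumors (-1.47 ± 0.25, limma adjusted p = 0.00467), whose values lie within the range of the olfactory receptor clusters. Cd79a had 7.93, 7.75, 8.08 and 7.88 in pre-leukemic thymus, a narrow range above all tumors, and tumors were 2.23-fold lower (limma adjusted p = 0.0279). The Cd79a call did not hold when pre-leukemic pool 1, 3 or 4 or tumor pool 1 was left out (limma adjusted p = 0.0717, 0.0632, 0.0596 and 0.0705), although the difference stayed between -1.16 and -1.07. Cd79b had 9.80, 10.12, 10.02 and 10.10 in pre-leukemic thymus, all above the highest tumor pool at 8.90, and tumors were 2.36-fold lower (-1.24 ± 0.11, limma adjusted p = 1.82e-04).

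Blnk had 7.34, 7.22, 7.58 and 7.24 in the pre-leukemic pools, all above the tumor maximum of 7.11, with a difference of -0.25 that was not called (95% interval -0.48 to -0.03, limma adjusted p = 0.121). Jchain had 7.83, 7.09, 7.62 and 8.43 in pre-leukemic thymus, and tumor pool 2 at 7.88 lay above 3 of them. Its difference of -0.94 was not called (limma adjusted p = 0.139), and without tumor pool 2 it was -1.30 and was called (limma adjusted p = 0.0217). It was also called without the array of narrowest spread of each group (-1.51, limma adjusted p = 0.0096) and without the 4 narrowest arrays (-1.73, limma adjusted p = 0.0497). Both of these settings also leave out tumor pool 2. In 15 of 18 alternatives the Jchain difference was not called, for example after quantile normalization (-0.81, limma adjusted p = 0.184). Mzb1 had 8.59, 9.0, 9.26 and 9.07 in pre-leukemic thymus, and only tumor pool 1 at 9.07 lay within that range. The Mzb1 difference was -0.84 (limma adjusted p = 0.0882), and -1.14 and called without tumor pool 1 (limma adjusted p = 0.00524). Pax5 had 7.30, 7.36, 7.03 and 6.94, and Cr2 4.70, 4.69, 4.74 and 4.78, in pre-leukemic thymus. Both overlapped the tumors, with differences of -0.16 and -0.06 and limma adjusted p of 0.560 and 0.799.

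Ebf1 was the member whose level varied most among pre-leukemic pools after Jchain. It had 8.36, 7.88, 7.28 and 8.48 in pre-leukemic thymus, so that pool 3 lay barely above the highest tumor, 7.22. Tumors were lower by 2.09-fold (-1.07 ± 0.26, limma adjusted p = 0.0213). The Ebf1 call was lost without pre-leukemic pool 1 or 4 or tumor pool 1 or 4 (limma adjusted p = 0.0658, 0.0523, 0.0503 and 0.0642). Ebf1 is also transcribed in adipocytes and their precursors, where it promotes fat-cell development. The mean log2 intensity of 8 adipocyte markers was 7.13, 7.03, 7.58 and 7.0 in the tumor pools. In pre-leukemic thymus that mean was 10.01, 9.55, 7.89 and 10.26, and in wild-type thymus it was 9.15, 9.93, 9.82 and 9.63. Pre-leukemic pool 3 was thus the lowest of its group for Ebf1 and for the fat markers, pool 4 the highest for both, and wild-type pools 1 and 2 were the lowest and the highest of theirs for both. This order was not particular to fat. The mean of 10 fibroblast and pericyte markers was also lowest in pre-leukemic pool 3 (8.19), but highest in pool 1 (9.29). In wild-type thymus it was likewise lowest in pool 1 (8.76) and highest in pool 2 (9.01). Wild-type pool 2 was the highest of its group for 8 of the 9 genes. All 8 adipocyte markers fell in tumors against wild-type thymus (median -1.95), where 14.5% of all clusters did. The summed intensity of these markers was 1176 to 1658 in tumors, 2031 to 12239 in pre-leukemic thymus and 5108 to 9340 in wild-type thymus. Their part in the Ebf1 difference was not tested.

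**Figure D4:**
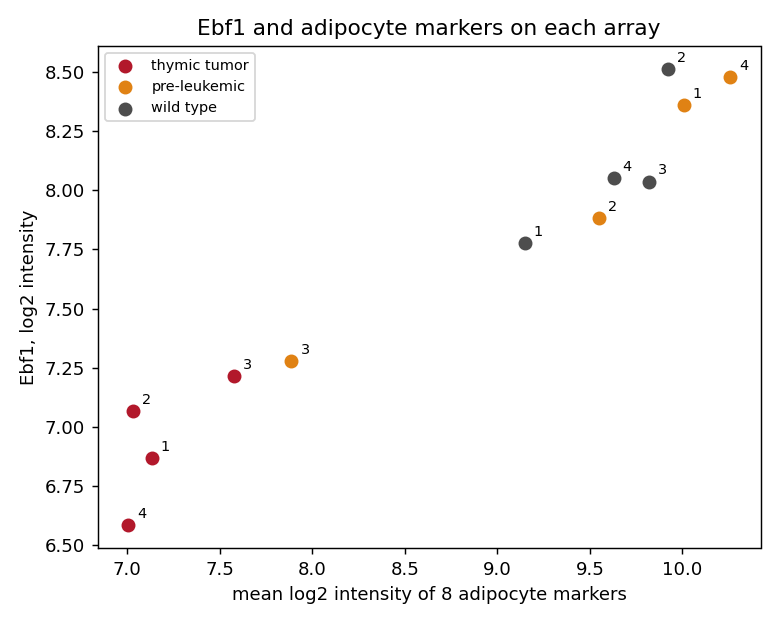
Log2 intensity of Ebf1 (vertical axis) against the mean log2 intensity of 8 adipocyte markers (horizontal axis), 1 point per array, coloured by group and numbered by replicate. The 4 tumors sit at the low end of both axes, and pre-leukemic pool 3 (7.89, 7.28) lies apart from the other pre-leukemic pools and next to the tumors.

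Pre-leukemic and wild-type thymus, both of 21 days, gave no called member (0 of 9) and no called cluster at all (0%), the smallest adjusted p over all clusters being 0.573 (limma). At an unadjusted p under 0.05 the fit gave 1112 clusters, 6.24%, of which 4.42% of all clusters were higher and 1.82% lower. At that looser threshold 4 members were counted, Ms4a1, Cr2 and Jchain lower and Mzb1 higher, none of which passed the adjustment (limma adjusted p = 0.764 for each). This fit reuses the wild-type arrays of the first comparison and the pre-leukemic arrays of the second. The median difference of the 9 genes was -0.10, against 0.04 over all clusters.

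Mzb1 was above the whole wild-type range of 7.76 to 8.27 in all 4 pre-leukemic pools, whose lowest value was 8.59, a placement seen in 3.65% of clusters. The mean was 8.98 ± 0.28 in pre-leukemic thymus and 8.09 ± 0.23 in wild-type thymus (SD, n = 4 each), a log2 difference of 0.89 with a 95% interval from 0.53 to 1.25. Jchain went the other way, with a difference of -0.66 (95% interval -1.22 to -0.09) and overlapping groups. Ms4a1 had a difference of -0.49 (95% interval -0.95 to -0.03), also with overlap. Cr2 was the one member with all 4 pre-leukemic pools below all 4 wild-type pools, which 0.780% of clusters were, but by only -0.20 and near the olfactory receptor level. Cd79a, Blnk and Ebf1 had differences of -0.28, -0.10 and -0.09, and Cd79b and Pax5 of 0.05 and 0.06. The Cd79b interval ran from -0.16 to 0.27, whereas that of Ebf1 ran from -0.69 to 0.50. The sign of the Ebf1 difference turned to 0.15 without pre-leukemic pool 3.

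Other genes of the B lineage were read from lists chosen with earlier results of these data known, and are given as counts. Of 21 measured genes of receptor and coreceptor signalling, 9 were lower and 0 higher in tumors than in wild-type thymus, with a median of -0.27, where 14.5% of all clusters were lower and 16.2% higher. The largest falls were those of Fcer2a (-1.08), the low-affinity IgE receptor of mature B cells, Ly86 (-1.01), the partner of the toll-like receptor homologue RP105, and Fcrla (-0.86), an Fc receptor-like protein of B cells. The Ly86 call was lost without wild-type pool 1 or 2 (limma adjusted p up to 0.0602). Against pre-leukemic thymus 6 of the 21 were lower in tumors, where 8.27% of all clusters were. Between pre-leukemic and wild-type thymus none was called, and Fcer2a (-0.41) and Inpp5d (-0.20), a phosphatase that dampens receptor signals, had the smallest p.

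Of 16 measured genes of early B-cell and B-lineage transcription, 5 were higher and 7 lower in tumors than in wild-type thymus (median -0.26). Over all clusters 16.2% were higher and 14.5% lower. Several of the 16 genes also act in thymocytes, so their levels are not specific to B cells. Rag2 (-2.12), a subunit of the recombinase, Bcl6 (-2.0), the repressor of germinal-center cells, and Bach2 (-1.45), a repressor of plasma-cell development, fell most. Irf4 (0.98), a factor of plasma-cell differentiation, Pou2af1 (0.81), the coactivator of octamer-binding factors, and Lef1 (0.65), a factor of lymphocyte progenitors, rose most. Leaving out single arrays gave 2 to 4 higher: 2 without wild-type pool 1, 3 or 4, and 3 without wild-type pool 2 or tumor pool 4. The Irf4 call was lost in 7 of these 8 fits, the Il7r call (0.42) in 5 and the Pou2af1 call in 4. Against pre-leukemic thymus 4 were higher and 6 lower, with 2 higher when any pre-leukemic pool or tumor pool 3 was left out. Of all clusters 8.27% were called lower in that comparison, and 48.3% of the 2855 called clusters were higher. In pre-leukemic against wild-type thymus, Il7r (-0.56), a receptor of lymphocyte progenitors, and Bach2 (-0.30) had the smallest p and were not called.

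Of 21 genes of plasma cells and secretion, 4 were higher and 4 lower in tumors than in wild-type thymus (median -0.12), shares near the 16.2% and 14.5% over all clusters. Without wild-type pool 1, 2 or 4 or tumor pool 4, 2 were higher. Ell2 (-2.09), an elongation factor that favours secreted antibody transcripts, Slamf7 (-1.52), a surface receptor of plasma cells, and Dnajb9 (-1.04), a co-chaperone of the endoplasmic reticulum, fell. Sdc1 encodes the plasma-cell surface marker syndecan-1, which is also made by epithelia and tumor cells. It rose by 1.97 (limma adjusted p = 3.78e-05), whereas Jchain, one of the 9 genes, fell. Ssr4 (0.41) and Fkbp11 (0.40), components of the secretory pathway, rose by less, and both calls were lost in 6 of 8 fits without an array. Of 6 genes of MHC class II presentation, the antigen-presenting function of B cells, dendritic cells and epithelium, 4 fell and 0 rose (median -1.29), led by Cd74 (-2.16), H2-Aa (-1.89) and H2-Ab1 (-1.70). Against pre-leukemic thymus 8.27% of all clusters were called lower in tumors, and 48.3% of the 2855 called clusters were higher. In that comparison 1 of the 21 plasma-cell genes was higher and 3 lower, and 4 of the 6 MHC class II genes were lower. None of either list was called in pre-leukemic against wild-type thymus, the smallest p being those of Slamf7 (-0.45) and Dnajb9 (-0.46) and of Ctss (-0.26) and H2-Aa (-0.16).

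**Figure D5:**
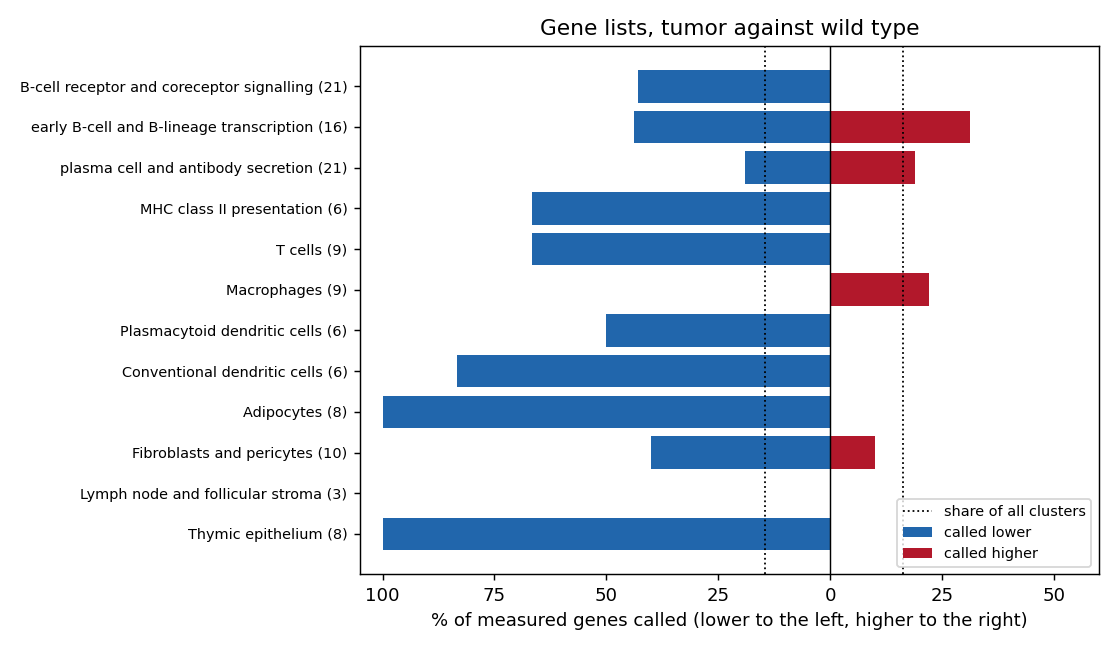
Share of measured genes of each list (horizontal axis, percent) called higher or lower in tumors against wild-type thymus, with the number measured in brackets and dotted lines at the shares over all clusters (14.5% lower, 16.2% higher). The receptor signalling and MHC class II lists hold 0 genes called higher, and the plasma-cell list holds equal numbers in each direction.

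Markers of other cells also moved between tumors and wild-type thymus, where 14.5% of all clusters were called lower and 16.2% higher. All 8 markers of thymic epithelium fell in tumors, with a summed intensity of 1167 to 1770 in tumors, 19020 to 21487 in pre-leukemic thymus and 17844 to 20317 in wild-type thymus. T-cell markers summed to 26397 to 30637 in tumors, 36862 to 42724 in pre-leukemic thymus and 39933 to 42935 in wild-type thymus, and 6 of the 9 fell in tumors. Of 6 markers of conventional dendritic cells 5 fell (638 to 1339 in tumors against 2131 to 2534 in wild-type thymus). The smallest of these falls (-0.33) was not called in 6 of 8 fits without an array. Of 6 markers of plasmacytoid dendritic cells, which also transcribe several B-lineage genes, 3 fell (3419 to 4646 in tumors against 5635 to 6668 in wild-type thymus). Siglech, their defining receptor, was at 6.71 ± 0.28 in tumors and 8.36 ± 0.17 in wild-type thymus, whereas pre-leukemic and wild-type thymus differed by -0.00467 on the log2 scale. In the same list Cox6a2 (-0.48), Tcf4 (-0.27) and Bst2 (0.25) were not called. Bst2 went the other way, and 1 marker was called higher without tumor pool 2. The Ly6d call (-0.62) was lost in 4 of 8 fits without an array. Of 9 macrophage markers 2 rose, where 16.2% of all clusters did, and 4 rose without tumor pool 2 (summed intensity 4483 to 9218 in tumors against 4840 to 5597 in wild-type thymus). Of 10 markers of fibroblasts and pericytes 4 fell and 1 rose (4828 to 7972 in tumors against 8008 to 10293 in wild-type thymus). The smallest of these falls (-0.54) was not called in 7 of 8 fits without an array. Of 3 markers of lymph node and follicular stroma none was called, and 1 was called higher without tumor pool 1 (790 to 2409 in tumors against 992 to 1322 in wild-type thymus). No intensity was 0 on any array, and the part of these shifts in the differences of the B-cell genes was not tested.

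As a description, the 10 named genes most like the set over the 12 arrays were Timd4, Il16, Acvr2a, Smoc1, Rasgrp3, Rgs5, Nectin3, Nr4a3, Slc14a1 and Pgm5, with Pearson r between 0.965 and 0.978 against the mean of the 9 scaled members. The arrays share their groups, so these values mostly follow the difference between tumors and thymus. With the group means removed, the closest were Grem1 (0.893), Timd4 (0.875), Spice1 (0.869), Pkia (0.863) and 1700055D18Rik (0.862). Rgs5 is also one of the 4 fibroblast and pericyte markers that fell in tumors (-1.40), whereas Pdgfrb of that list rose (2.39, limma adjusted p = 0.00107). Timd4, a phosphatidylserine receptor, stood in both lists and differed by -1.0 between tumors and wild-type thymus.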

How the data were processed

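Values are intensities that the authors deposited after normalization, 1 for each cluster and array, on a linear scale from 6.17 to 24310, for 17829 clusters. How they were normalized is not given in the sources used here. RNA was isolated with Trizol, per the labels' protocols, then amplified with the Ambion WT expression kit and labelled with biotin. A further 24 columns of pools that match no sample label were not used.

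Intensities were log2-transformed with no pseudocount. The platform annotation gave 15618 clusters 1 symbol, 1370 several and 841 none; each of the 9 genes had 1 such cluster. Each comparison was fitted on its 8 arrays in R 4.3.3 by limma 3.58.1 (two-sided, lmFit then eBayes, no filter), with Benjamini-Hochberg adjustment over all clusters and calls at an adjusted p under 0.05. Fits were tested on simulated data with 67, 67 and 66 of 17829 clusters changed by 0.5, 1 and 2 on the log2 scale. Across the comparisons, 32.8% to 55.2% of changes of 0.5 were called, 73.1% to 92.5% of changes of 1 and 95.5% to 98.5% of changes of 2. Far fewer clusters changed there than were called in tumors against either thymus group. Precision is limited by how few arrays there are. Across clusters, standard errors of log2 differences had medians of 0.103 (tumor against wild type), 0.128 (tumor against pre-leukemic) and 0.100 (pre-leukemic against wild type).

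The genes, lists, motifs and tests were chosen with earlier results of these data known. All 9 genes are named; from each list, up to 3 called rises and 3 called falls in tumors against wild-type thymus, and for pre-leukemic thymus the 2 with the smallest p; and the genes most correlated with the mean of the 9. Siglech, outside this rule, was named after its values were seen. Alternatives were quantile normalization, a pseudocount of 16, a filter at a mean log2 intensity of 6, a trended robust prior, all 12 arrays in the fit, a replicate block, a posterior probability over 95%, and leaving out arrays. Promoter windows were the 250 bases before RefSeq starts (GRCm38.p6); Ms4a1, Cd79b and Mzb1 are named only.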

Additional observations from a re-analysis of the deposited data

Results flagged for a closer look

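Within each group of 4 arrays, each of the 9 genes was checked for an array far from the other 3, which made 27 checks, and chance marks about 1 in 20. Wild-type pool 2 stood apart in 2 of them. Cd79b was at 10.14 there, against 9.88 to 9.91 in the other wild-type pools, and Cr2 was at 5.12, against 4.86 to 4.87. That array was also the highest wild-type array for 8 of the 9 genes, and it had the widest spread of values of its group (interquartile range 3.08). Without that array, the difference between tumors and wild-type thymus was -1.12 for Cd79b (limma adjusted p = 2.64e-04, still called) and -0.20 for Cr2 (limma adjusted p = 0.237, not called).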

How the results depend on the processing

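In tumors against wild-type thymus, 6 genes were called, and 6 or 7 with single arrays left out (7 without tumor pool 2, which adds Cr2). Cr2 was also called after quantile normalization (-0.32, limma adjusted p = 0.0377) and without the 4 arrays of narrowest spread (-0.40, limma adjusted p = 0.0172), an alternative added after the data were seen. Of the tumors, that alternative kept only pools 1 and 4, the lowest for Cr2. The posterior probability criterion left 1 call, Cd79b. It assumed beforehand that a share of 0.01 of clusters changed, whereas 30.7% were called in tumors against wild-type thymus. In tumors against pre-leukemic thymus, 4 genes were called, 1 under the posterior criterion (Cd79b) and from 2 to 5 with single arrays left out, the lowest without pre-leukemic pool 1 or 4. The fit without the 4 narrowest arrays kept only tumor pools 1 and 4 and pre-leukemic pools 3 and 4. Ebf1 was not called in that fit (-1.15, limma adjusted p = 0.185). Without the narrowest array of each group, Cd79a (-1.35, limma adjusted p = 0.0545) and Ebf1 (-1.15, limma adjusted p = 0.0694) were not called and Jchain was. Blnk and Mzb1 were called there with all 12 arrays in the fit (limma adjusted p = 0.0379 and 0.0394). Pre-leukemic against wild-type thymus gave 0 called genes in every alternative, and the Mzb1 difference stayed between 0.78 and 1.08. No called difference changed sign.

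Over all clusters, calls in tumors against pre-leukemic thymus numbered 2855, and 853 without the 4 narrowest arrays, the fit on the fewest arrays. They numbered 1888 without the narrowest of each group, 1728 without pre-leukemic pool 1, 1856 without tumor pool 4 and 4290 with all 12 arrays. Pre-leukemic against wild-type thymus gave 0 clusters, and 1 without pre-leukemic pool 3. The filter on low values removes Cr2, so it has no value there.

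With the replicate number as a block, 6 genes were called in tumors against wild type, 3 in tumors against pre-leukemic thymus (Ebf1 lost, limma adjusted p = 0.0574) and 0 in pre-leukemic against wild type. Deviations of same-numbered arrays correlated between -0.55 and 0.42, with no common sign. So few arrays cannot settle whether the numbers pair the samples. With 4 arrays a group and intensities that include background, small differences of weakly expressed genes such as Cr2 may not be resolved.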
